A study of Mus musculus with 8 samples.

Results

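The transcripts described here encode the subunits of the transcription factor NF-kB and the IkB proteins that bind them, in dendritic cells with or without the microRNA miR-155. They comprise 10 genes, chosen by name: the subunit genes Nfkb1, Nfkb2, Rela, Rel and Relb, and the IkB genes Nfkbia, Nfkbib, Nfkbie, Nfkbiz and Bcl3. They carry 14 of the 41174 probes and 10 of the 27398 gene names of a one-colour Agilent mouse array with 60-base probes. All 14 probes passed the filter on dim signal, that of Rel only through the KO LPS group. The RNA came from dendritic cells grown out of the bone marrow of male C57BL/6Jax mice, either miR-155 KO or WT. All cultures were kept for 7 days in medium with 40 ng/mL GM-CSF, a growth factor that drives marrow precursors to dendritic cells. The 4 groups were KO cells given lipopolysaccharide (LPS, a bacterial outer membrane component) at 100 ng/mL for 16 h and sorted as CD86+, KO cells left unstimulated and sorted as CD86-, WT cells with LPS sorted as CD86+, and WT unstimulated cells sorted as CD86-. CD86 is a costimulatory protein of activated dendritic cells, so each LPS comparison is also a comparison of 2 sort gates. Each group had 2 arrays. The labels do not say whether these came from separate animals or cultures, so the p-values measure the spread between these arrays, which may be technical, and the number of arrays limits the precision. How the miR-155 allele was made is not given in the sources used here.

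NF-kB acts as dimers of Rel-family subunits. In resting cells IkB proteins hold most dimers in the cytoplasm. Signals such as LPS, sensed by the receptor TLR4, activate the IKK kinases, which mark IkB proteins for degradation and release the dimers to the nucleus. Several subunit and IkB genes are themselves NF-kB targets, which gives the system both feedforward and negative feedback. The products of Nfkb1 and Nfkb2 are precursors that are processed to DNA-binding subunits without a transactivation domain, whereas RelA, c-Rel and RelB carry one. RelB with processed Nfkb2 forms the dimer of the non-canonical pathway, which is linked to dendritic cell maturation. IkB proteins of the classical kind (Nfkbia, Nfkbib and Nfkbie) retain dimers in the cytoplasm, while the atypical ones (Nfkbiz and Bcl3) act in the nucleus on bound dimers. miR-155 is induced by LPS in myeloid cells, and IKK-epsilon, encoded by Ikbke, is among the proteins reported as its targets.

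The missing microRNA is shown first, with bases 2 to 8 of the mature strand, the seed that pairs with targets, in capitals. Its RefSeq position is chr16:84714143-84714165 on the + strand of GRCm38.p6.
mmu-miR-155-5p: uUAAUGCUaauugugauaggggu
No probe on the array was named for miR-155 or its host transcript (0 probes), so the deletion itself was not checked here. The next 4 sequences are probes of Nfkb2, Rela, Nfkbia and Nfkbib. Those of Nfkb2, Nfkbia and Nfkbib are shown because their listed spans are far longer than the probe. That of Rela is shown because it was spotted 10 times. Positions are those of the array files, on mm9.
Nfkb2 probe, chr19:46386146-46386285, + strand: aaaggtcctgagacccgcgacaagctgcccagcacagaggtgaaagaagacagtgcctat
Rela probe, chr19:5647136-5647195, + strand: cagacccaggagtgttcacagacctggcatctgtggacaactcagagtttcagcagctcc
Nfkbia probe, chr12:56590945-56591440, - strand: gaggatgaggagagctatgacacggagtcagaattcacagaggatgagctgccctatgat
Nfkbib probe, chr7:29544167-29544848, - strand: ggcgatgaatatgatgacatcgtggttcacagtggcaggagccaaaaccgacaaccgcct
The spans listed for Nfkb2, Nfkbia and Nfkbib, at 140, 496 and 682 bases, are longer than the 60-base probe, and that of this Rela probe is 60 bases. No mm9 annotation was used, so exon and UTR positions are not given. This Rela probe is the second of that gene, and the other is used for the main Rela values.

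Because several of these genes are known NF-kB targets, the 250 bases upstream of RefSeq start sites were searched for the kappaB consensus, the general DNA motif of NF-kB dimers, on both strands and with overlapping matches allowed. RefSeq promoter windows were given for 7 of the 10 genes (9 windows), all except Nfkb1, Relb and Nfkbiz. Capitals mark bases in a match, and coordinates are GRCm38.p6.
Nfkb2 upstream, chr19:46304487-46304736, + strand: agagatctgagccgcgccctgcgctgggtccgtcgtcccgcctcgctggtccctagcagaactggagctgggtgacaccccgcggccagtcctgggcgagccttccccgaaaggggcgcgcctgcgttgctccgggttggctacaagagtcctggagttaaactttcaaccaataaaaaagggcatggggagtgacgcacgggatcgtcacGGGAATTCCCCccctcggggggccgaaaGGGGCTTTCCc
Nfkbia upstream, chr12:55492648-55492897, - strand: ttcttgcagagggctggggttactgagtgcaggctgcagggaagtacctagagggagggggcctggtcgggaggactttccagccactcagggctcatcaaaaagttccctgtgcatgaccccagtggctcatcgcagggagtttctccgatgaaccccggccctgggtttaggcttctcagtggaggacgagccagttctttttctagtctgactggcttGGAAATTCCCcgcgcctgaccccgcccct
Nfkbie upstream, chr17:45555450-45555699, + strand: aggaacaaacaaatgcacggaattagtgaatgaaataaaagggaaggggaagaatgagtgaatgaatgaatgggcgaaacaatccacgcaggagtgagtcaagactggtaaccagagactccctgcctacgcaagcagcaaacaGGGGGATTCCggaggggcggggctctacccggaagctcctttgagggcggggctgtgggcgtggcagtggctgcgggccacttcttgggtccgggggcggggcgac
Rel upstream, chr11:23770970-23771219, - strand: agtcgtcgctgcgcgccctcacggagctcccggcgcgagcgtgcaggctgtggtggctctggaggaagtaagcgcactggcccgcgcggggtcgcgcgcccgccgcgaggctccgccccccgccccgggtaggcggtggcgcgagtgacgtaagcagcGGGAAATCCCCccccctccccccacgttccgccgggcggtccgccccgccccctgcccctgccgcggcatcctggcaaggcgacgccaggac
Rela upstream, chr19:5637291-5637540, + strand: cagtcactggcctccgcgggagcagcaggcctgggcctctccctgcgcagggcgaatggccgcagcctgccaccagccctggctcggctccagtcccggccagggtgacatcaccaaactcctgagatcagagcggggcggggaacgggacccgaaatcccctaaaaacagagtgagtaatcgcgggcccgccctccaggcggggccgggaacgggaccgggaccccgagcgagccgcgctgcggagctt
In the Nfkb2 window, matches lay at positions −39 to −30 and, overlapping it, −38 to −29, and at −11 to −2 relative to the start site. The match in Nfkbia ran from −29 to −20, that in Nfkbie from −106 to −97, and those in Rel from −92 to −83 and from −91 to −82. The Rela window above held none, nor did that of Nfkbib. The other 2 Nfkb2 windows each held a match upstream, and Bcl3 held 1 just past its start site, at 3 to 12. Counting the full 300-base windows, which run on past the start site, 7 of 9 windows and 5 of 7 genes held a match, against 4.51% of all 32851 windows and 5.14% of 27025 genes. These matches describe letters in a window and are not measured binding sites.

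The values below are scaled log2 signals, that is the log2 of the processed spot signal minus the 75th percentile of its array, so that a difference of 1 is a doubling of signal. A gene was called at a Benjamini-Hochberg adjusted p under 0.05 over all genes in limma's moderated test. All 10 genes had higher signals on both LPS arrays than on both unstimulated arrays in KO cells, and likewise in WT cells. Of all genes, 63.6% in KO and 62% in WT had LPS and unstimulated arrays that did not overlap, in either direction. In KO cells 9 of the 10 rose and 0 fell, where 20.8% of all tested genes were called and 10.3% were called higher. In WT cells 6 of the 10 rose and 0 fell, where 20.3% of all tested genes were called and 9.49% higher. Rel is counted in both genotypes, although its probe passed the filter on dim signal only through KO LPS cells. The median log2 difference of the 10 genes was 2.14 in KO and 1.87 in WT, or 2.02 and 1.75 with Rel at its bound, beside 0.05 and 0 over all genes. The larger number of calls in KO is not a tested difference, and the test of that difference, given further on, called none of the 10. In RNA from sorted cells, more transcript per cell and more cells that hold it cannot be told apart.

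**Figure D1:**
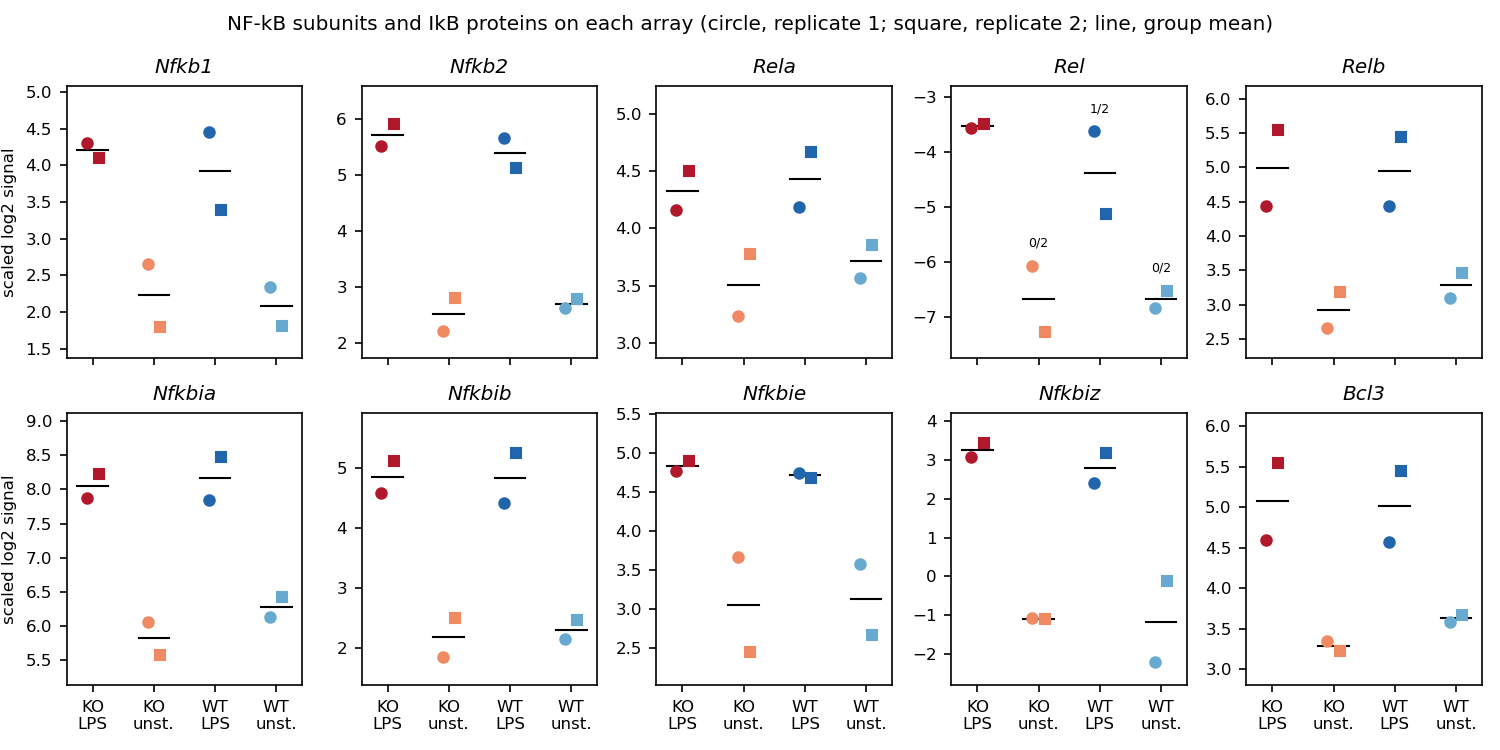
Scaled log2 signal (vertical axes, 1 scale per gene) of the 10 genes on each of the 8 arrays, by group; circles are replicate 1, squares replicate 2 and lines group means, and a fraction gives the arrays of a group that were well above background where that was not both. In every panel both LPS arrays of a genotype lie above both of its unstimulated arrays.

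Of the 5 subunit genes, 4 rose in KO and 3 in WT, where 10.3% and 9.49% of all tested genes were called higher. Rel is counted in both genotypes, although its probe passed the filter only through KO LPS cells. Among the subunit genes Nfkb2, the precursor of the non-canonical pathway, had the clearest LPS difference. Its signal was 5.52 and 5.9 in KO LPS cells, against 2.21 and 2.81 in KO unstimulated cells, and 5.66 and 5.13 in WT LPS cells, against 2.62 and 2.78 in WT unstimulated cells. The gap between states exceeded 2 log2 units for every pair of arrays. Nfkb2 rose by 3.2 ± 0.33 in KO (SE, n = 2 arrays per group, adjusted p = 0.00134), a 9.17-fold difference. In WT it rose by 2.69 ± 0.33 (adjusted p = 0.00275), which is 6.47-fold.

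Relb, whose product pairs with processed Nfkb2, was read at chr7:20191722-20191781 (mm9). It had signals of 4.43 and 5.54 in KO LPS cells, against 2.66 and 3.18 in KO unstimulated cells. In WT cells it had 4.44 and 5.44 with LPS, against 3.1 and 3.46 without. On both genotypes' LPS arrays replicate 2 was the higher, by as much as 1.12 in KO, so the LPS arrays spread more than the unstimulated ones. Relb rose by 2.06 ± 0.49 in KO (adjusted p = 0.0277). In WT its difference of 1.66 ± 0.49 missed the threshold (adjusted p = 0.0564), although no arrays overlapped.

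Nfkb1, the precursor of the main canonical DNA-binding subunit, had 4.31 and 4.1 in KO LPS cells, against 2.65 and 1.8 in KO unstimulated cells. The WT values were 4.45 and 3.39 with LPS, against 2.34 and 1.81 without LPS. The spread between replicates was widest in WT LPS cells, at 1.06. Nfkb1 rose by 1.98 ± 0.46 in KO (adjusted p = 0.0247) and by 1.85 ± 0.46 in WT (adjusted p = 0.0324).

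Rela, the transactivating partner in the most common canonical dimer, was read at chr19:5647632-5647691 (mm9) and showed the smallest difference of the 10. Its signal was 4.16 and 4.5 in KO LPS cells, against 3.24 and 3.78 in KO unstimulated cells, and 4.19 and 4.67 in WT LPS cells, against 3.57 and 3.86 in WT unstimulated cells. All LPS arrays stood above the unstimulated arrays of their genotype, by margins no wider than the replicate spread. The log2 difference was 0.82 ± 0.32 in KO (adjusted p = 0.124) and 0.71 ± 0.32 in WT (adjusted p = 0.168), without a call in either.

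Rel, which encodes c-Rel and is best known from lymphocytes and from induction of Il12b in dendritic cells and macrophages, was the dimmest probe. Its signal was −3.55 and −3.48 in KO LPS cells, against −6.07 and −7.27 in KO unstimulated cells, and −3.62 and −5.12 in WT LPS cells, against −6.84 and −6.53 in WT unstimulated cells. Both KO LPS arrays and 1 WT LPS array were well above background, and 0 of the unstimulated arrays of either genotype. The probe thus passed the filter on dim signal only through KO LPS cells, where it was highest. That filter favours a call of a rise with LPS, so the Rel calls are given as description only. With no filter on dim probes the WT call was lost (adjusted p = 0.0539) and the KO call was kept. Unscaled, the unstimulated signals were 11.2 and 4.45 intensity units in KO and 5.91 and 5.12 in WT. The fold change is therefore a lower bound. It sets the mean of the LPS arrays against, for each unstimulated array, the higher of the lowest signal well above background and the probe's own. Rel was at least 3.89-fold higher with LPS in KO (adjusted p = 0.0107 for the fitted difference) and at least 1.11-fold higher in WT (adjusted p = 0.0322). Its listed position, chr11:23641729-23641743 on mm9, covers only part of a 60-base probe. With normexp background correction and quantile normalization Rel was not called, with differences of 0.68 in KO (adjusted p = 0.0752) and 0.47 in WT (adjusted p = 0.183).

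Of the 3 classical inhibitor genes, 3 rose in KO and 2 in WT, where 10.3% and 9.49% of all tested genes were called higher. Nfkbia encodes IkB-alpha, the inhibitor known for rapid resynthesis after NF-kB activation. It had 7.87 and 8.22 in KO LPS cells, against 6.06 and 5.58 in KO unstimulated cells. WT cells had 7.85 and 8.48 with LPS, against 6.13 and 6.43 without. The replicates of each group lay within 0.63 of each other. Nfkbia rose by 2.22 ± 0.33 in KO (adjusted p = 0.00536), or 4.66-fold, and by 1.89 ± 0.33 in WT (adjusted p = 0.0104), or 3.7-fold.

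Nfkbib encodes IkB-beta, which is described as a slower and less inducible inhibitor than IkB-alpha. Here its signal was 4.58 and 5.12 in KO LPS cells, against 1.85 and 2.5 in KO unstimulated cells, and 4.42 and 5.26 in WT LPS cells, against 2.15 and 2.46 in WT unstimulated cells. Every LPS array stood well clear of every unstimulated array. Nfkbib rose by 2.68 ± 0.4 in KO (adjusted p = 0.00527), 6.4-fold, and by 2.54 ± 0.4 in WT (adjusted p = 0.00684), 5.8-fold. These estimates are above those of Nfkbia in both genotypes, but their 95% intervals overlap (1.73 to 3.63 for Nfkbib and 1.43 to 3.02 for Nfkbia in KO), and the 2 genes were not tested against each other.

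Nfkbie encodes IkB-epsilon, an inhibitor of dimers with RelA and c-Rel. Its probe lies at chr17:45700000-45700059 (mm9). It had 4.77 and 4.89 in KO LPS cells, against 3.66 and 2.45 in KO unstimulated cells, and in WT 4.74 and 4.68 with LPS, against 3.58 and 2.67 without. The 4 LPS arrays were nearly level, and replicate 1 was the higher unstimulated array in both genotypes, by 1.21 in KO and 0.9 in WT. Nfkbie rose by 1.77 ± 0.47 in KO (adjusted p = 0.0384) and had a difference of 1.58 ± 0.47 in WT (adjusted p = 0.0556), short of the threshold.

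Of the atypical nuclear IkB genes, both rose in KO and 1, Nfkbiz, in WT, where 10.3% and 9.49% of all tested genes were called higher. Nfkbiz, whose product IkB-zeta is needed for a set of secondary LPS response genes that includes Il6 in macrophages, had the largest difference of the 10. Read at chr16:55812091-55812150 (mm9), its signal was 3.09 and 3.44 in KO LPS cells, against −1.07 and −1.11 in KO unstimulated cells, and 2.4 and 3.18 in WT LPS cells, against −2.22 and −0.11 in WT unstimulated cells. The WT unstimulated arrays were 2.11 apart, the widest gap between replicates of any of the 10 genes. Nfkbiz rose by 4.35 ± 0.66 in KO (adjusted p = 0.00535), or 20.4-fold, and by 3.96 ± 0.66 in WT (adjusted p = 0.00814), or 15.5-fold. Without WT unstimulated replicate 1 the WT difference was 2.9 (adjusted p = 0.0147), and without WT unstimulated replicate 2 it was 5.01 (adjusted p = 0.00394).

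Bcl3, whose product acts on dimers of processed Nfkb1 or Nfkb2 in the nucleus, had 4.6 and 5.55 in KO LPS cells, against 3.35 and 3.22 in KO unstimulated cells. Its probe lies at chr7:20393862-20393921 (mm9). The WT signals were 4.57 and 5.45 with LPS, against 3.58 and 3.67 without. As for Relb, replicate 2 was the higher LPS array in both genotypes, by 0.95 in KO and a similar gap in WT. Bcl3 rose by 1.79 ± 0.42 in KO (adjusted p = 0.0261), and its difference in WT was 1.38 ± 0.42 (adjusted p = 0.0602).

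**Figure D2:**
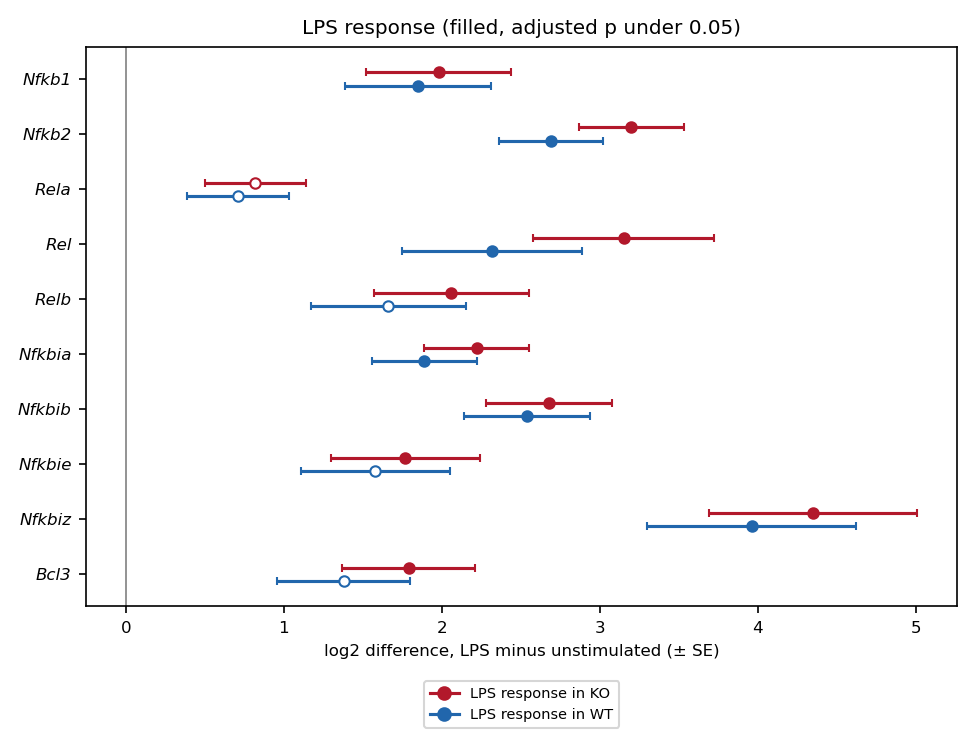
LPS response of each gene, as the log2 difference LPS minus unstimulated (horizontal axis) with its standard error, in KO and WT cells with 2 arrays per group; filled points have an adjusted p under 0.05. All 20 points lie to the right of 0, from 0.71 for Rela in WT to 4.35 for Nfkbiz in KO, and the KO point of each gene lies to the right of its WT point by less than their error bars span.

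The calls depended on single arrays. Over all genes the calls also fell without each array of the genotype compared and within each slide, so such losses are not particular to these 10 genes. In WT the number of called genes was 3 without WT unstimulated replicate 1, 4 without WT unstimulated replicate 2 or WT LPS replicate 1, and 5 without WT LPS replicate 2. In KO it was 4 without KO unstimulated replicate 2, 5 without KO LPS replicate 2, 7 without replicate 1 of either KO group, and 8 without either WT LPS array, which share in the estimate of the spread. The WT calls lost in this way were those of Nfkb1, Rel and Nfkbia (adjusted p = 0.0535 to 0.151), and the KO calls those of Nfkb1, Rel, Relb, Nfkbie and Bcl3 (adjusted p = 0.0619 to 0.168). The called fold differences that moved by over 1.5 times without an array of their own genotype were those of Nfkbie and Rel in KO and of Nfkbiz and Rel in WT. The log2 difference of Nfkbie in KO was 2.38 without KO unstimulated replicate 1 (adjusted p = 0.0242) and 1.17 without KO unstimulated replicate 2 (adjusted p = 0.168). That of Rel in KO was 3.75 and 2.55 without the same arrays (adjusted p = 0.0193 and 0.0663), and that of Rel in WT was 1.56 without WT LPS replicate 1 and 3.07 without WT LPS replicate 2 (adjusted p = 0.134 and 0.0237). Nfkb2, Nfkbib and Nfkbiz in WT, and Nfkb2 and Nfkbiz in KO, were called in 19 of 19 alternative settings. By the scan time in the file headers the arrays formed 2 sets, which are called slides here, although no slide identifier was read. KO unstimulated replicate 2, WT LPS replicate 2 and the WT unstimulated pair were on slide 1 and the remaining 4 arrays on slide 2. With slide as a block, 1270 of 15425 tested genes were called higher and 1081 lower in KO. In WT 1095 of 15422 were called higher and 1105 lower. Of the 10 genes, 8 were called in KO and 7 in WT with that block. Within slide 2 alone 2 were called in KO, and within slide 1 alone 4 in WT, each time with 1 array in one of the states. With the slide block Nfkbie was no longer called in KO (1.46, adjusted p = 0.0989), and Relb was called in WT (2.04, adjusted p = 0.0427).

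Because the responses ran the same way in both genotypes, their average was also tested, a comparison chosen after seeing the data. It sets 4 LPS arrays against 4 unstimulated arrays in the same fit. All 10 genes rose, where 37.5% of all tested genes were called and 18.4% called higher. For Rel the filter on dim signal favoured the call. The differences ran from 0.77 ± 0.23 for Rela (adjusted p = 0.0366) and 1.59 ± 0.3 for Bcl3 (adjusted p = 0.00633) to 4.16 ± 0.46 for Nfkbiz (adjusted p = 0.000799). The call of Rela was lost without any one of the arrays except KO unstimulated replicate 2, at adjusted p = 0.0501 to 0.117. It was also lost with quantile normalization (0.61, adjusted p = 0.0705), with no filter on dim probes (adjusted p = 0.0635) and with the mean of both Rela probes (0.7, adjusted p = 0.0569). The other 9 kept theirs without any single array.

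KO and WT cells were then compared within each state, the question being whether the absence of miR-155 goes with a different level of these transcripts. No gene of the 10 was called in unstimulated cells (0.344% of all tested genes were), after LPS (0.0259%), averaged over states (0.214%), or in the difference between the LPS responses (0.0713%). None had an unadjusted p under 0.05 either in limma (0 of 10 in each of the 4 comparisons). Over all genes few did, with 411 of 15422 in unstimulated cells and 187 of 15425 after LPS. There were 427 of 15421 averaged over states and 236 of 15421 in the difference between the responses. A count of 0 of 10 is near those shares. The median difference of the 10, KO minus WT, was −0.16 in unstimulated cells and 0.09 after LPS, against −0.05 and −0.01 over all genes. In each state 2 of the 10 genes had KO and WT arrays that did not overlap, near the share over all genes, 21% in unstimulated cells and 21.2% after LPS.

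In unstimulated cells these were Nfkbia and Bcl3, both lower in KO. Nfkbia had 6.06 and 5.58 in KO, against 6.13 and 6.43 in WT, a difference of −0.46 ± 0.33 with a 95% interval of −1.25 to 0.34. Bcl3 had 3.35 and 3.22 in KO, against 3.58 and 3.67 in WT, a difference of −0.34 ± 0.42 (−1.34 to 0.66). Both intervals contain 0.

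After LPS they were Rel and Nfkbie, both higher in KO. Rel had −3.55 and −3.48 in KO, against −3.62 and −5.12 in WT, a difference of 0.85 ± 0.57 with an interval of −0.51 to 2.21, where 1 of the WT arrays was not well above background. The filter on dim signal kept this probe through its KO LPS arrays, which favours a higher value in KO. Nfkbie had 4.77 and 4.89 in KO, against 4.74 and 4.68 in WT, a difference of 0.12 ± 0.47 (−0.99 to 1.23). For the other genes the KO minus WT difference after LPS lay between −0.12 (Nfkbia) and 0.47 (Nfkbiz). In unstimulated cells it lay between −0.36 (Relb) and 0.15 (Nfkb1) for the genes other than Nfkbia and Bcl3.

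These intervals bound the size of any difference rather than show that the genotypes are alike. The narrowest after LPS belonged to Rela, whose difference of −0.1 had an interval of −0.87 to 0.66. The widest belonged to Nfkbiz, from −1.08 to 2.03. In the difference between LPS responses, KO minus WT, all 10 estimates were above 0, from 0.11 for Rela to 0.83 for Rel, with a median of 0.37 against 0.05 over all genes. Of all 15421 tested genes, 8785 were above 0 and 6636 below. Of 25 textbook NF-kB targets, listed further on, 21 were above 0 and 4 below, so this is not particular to the 10 genes. The estimate of Rel was favoured by the filter that kept its probe through KO LPS cells. Every interval contained 0, and the estimates of one list share the same 8 arrays. The sign turned for 1 gene under normexp with quantile normalization, for 4 of the 10 without KO LPS replicate 2, when the estimates ran from −0.16 to 0.8, and for 4 without WT LPS replicate 1, when they ran from −0.28 to 1.59. It also turned for 3 without WT unstimulated replicate 2 (−0.66 to 0.68), for 2 each without WT unstimulated replicate 1 or either KO unstimulated array, and for 1 each without WT LPS replicate 2 or with the mean of a gene's probes. On the other probes of Nfkb1 the estimates were −0.2, −0.26 and −0.07, and on the second Rela probe −0.02.

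**Figure D3:**
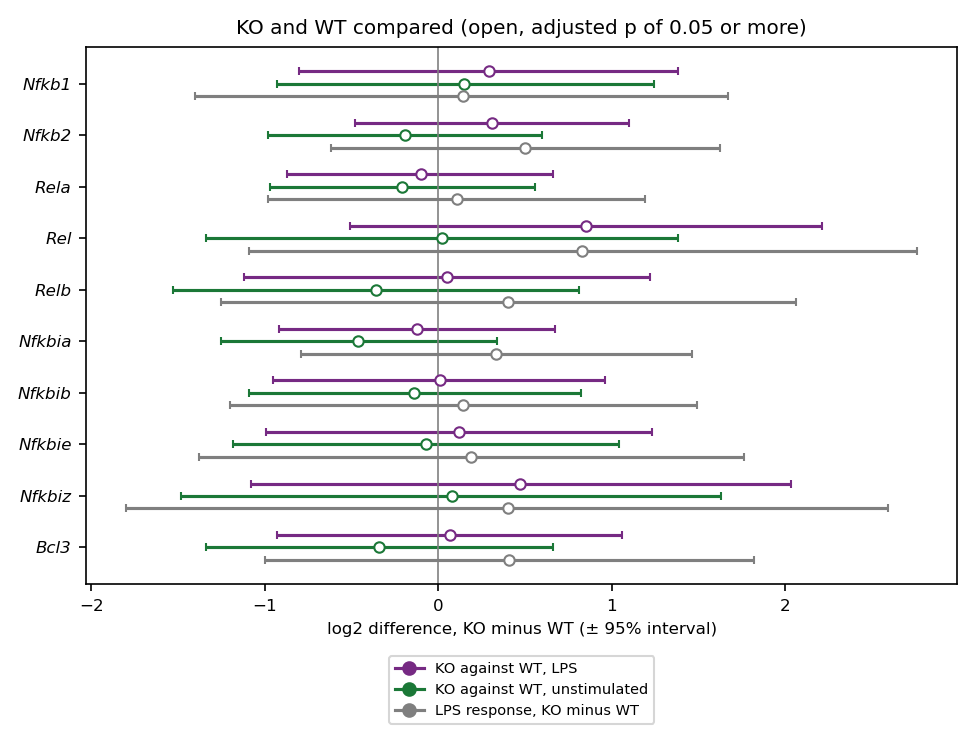
KO minus WT differences of each gene (log2, horizontal axis) with 95% intervals from the limma fit, after LPS, in unstimulated cells and as the difference between the LPS responses, with 2 arrays per group. All points are open (adjusted p of 0.05 or more) and all 30 intervals cross 0.

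Ordering the 4 groups by mean signal gave the same split in every gene, with both LPS groups above both unstimulated groups. KO LPS cells were the highest group in 8 genes, and WT LPS cells in Rela and Nfkbia. The lowest group was WT unstimulated in Nfkb1, Rel and Nfkbiz and KO unstimulated in the remaining 7. Neighbouring groups of the same state had overlapping arrays apart from the 4 gene and state pairs above, so their order is within the replicate spread. Across the 8 arrays, with each profile centred on its own mean, the closest pair of these genes was Bcl3 and Relb, with a root mean square difference of 0.23 log2 units. Bcl3 and Nfkbia followed at 0.31 and Nfkb1 and Nfkbie at 0.33, while Nfkbiz and Rela were the farthest pair at 1.78. These profiles share arrays, and the measure mostly reads the size of the LPS difference.

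The same measure named the 3 other genes most like Nfkbia and most like Nfkb2 among 15345 genes with values on all 8 arrays. For Nfkbia they were Tdrd7 (0.11), a tudor domain gene, Psme2 (0.17), a subunit of the proteasome activator, and Sp110 (0.18), a nuclear body gene. Tdrd7 rose by 2.11 ± 0.29 in KO and by 1.81 ± 0.29 in WT (adjusted p = 0.0036 and 0.00688). For Nfkb2 they were Parp9 (0.22) and Parp12 (0.24), of the PARP family, and Oas1b (0.24), of the antiviral oligoadenylate synthetase family. Parp9 rose by 2.74 ± 0.27 in KO and by 2.53 ± 0.27 in WT (adjusted p = 0.00111 and 0.00166). These genes were picked for profiles like those of Nfkbia and Nfkb2 on the same arrays. A rise with LPS was thus fixed by the choice, and their p-values add no separate support.

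Nfkb1 and Rela were each read by more than 1 probe, which allowed a check within the gene. The Nfkb1 values above came from A_51_P283759, spotted 10 times, at chr3:135247710-135247771 on the - strand of mm9. The other 3 Nfkb1 probes lay 26.5, 27.4 and 33.5 kb from it on the same strand and were dimmer. Each is listed under a transcript record other than that of the main probe, and whether they read the same transcript was not tested. A_52_P569539 had 2.52 and 1.52 in KO LPS cells, against 0.01 and −0.39 in KO unstimulated cells, and 2.43 and 1.62 in WT LPS cells, against −0.7 and −0.2 in WT unstimulated cells. A_52_P582969 had 3.07 and 2.06 in KO LPS cells, against 0.3 and 0.09 in KO unstimulated cells, and 2.96 and 1.79 in WT LPS cells, against −0.21 and 0.07 in WT unstimulated cells. A_52_P32733 had 0.36 and 0.02 in KO LPS cells, against −1.71 and −2.4 in KO unstimulated cells, and 0.52 and −0.45 in WT LPS cells, against −2.67 and −2.15 in WT unstimulated cells. No LPS array overlapped an unstimulated one on any of them. With p adjusted over all probes, of which 19.7% were called in KO and 19.3% in WT, all 4 Nfkb1 probes were called in both genotypes. The 3 others rose by 2.21 to 2.37 in KO and by 2.44 to 2.47 in WT, above the 1.98 and 1.85 of the main probe by less than their intervals span.

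The second Rela probe, A_52_P186119, whose sequence is printed above, was spotted 10 times and was dimmer than the first. It had 0.71 and 0.99 in KO LPS cells, against −0.17 and 0.61 in KO unstimulated cells, and 0.75 and 1.2 in WT LPS cells, against 0.08 and 0.56 in WT unstimulated cells. Its LPS difference was 0.63 ± 0.37 in KO (adjusted p = 0.28) and 0.65 ± 0.37 in WT (adjusted p = 0.26). In the average over genotypes it was 0.64 ± 0.26 (adjusted p = 0.0939 over all probes). Neither Rela probe was called in either genotype, and both put the LPS difference below 1 log2 unit.

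**Figure D4:**
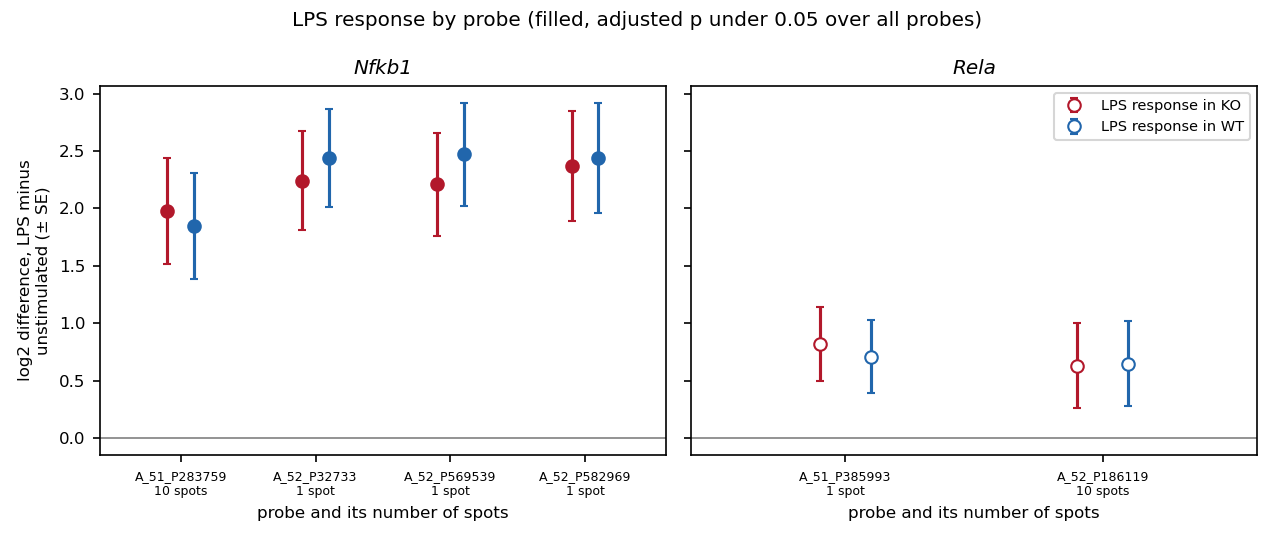
LPS response by probe (log2 difference LPS minus unstimulated, with standard error) for the 4 Nfkb1 probes and the 2 Rela probes, in KO and WT cells with 2 arrays per group; filled points have an adjusted p under 0.05 over all probes. The Nfkb1 probes lie between 1.85 and 2.47 and are all filled, while the Rela probes lie between 0.63 and 0.82 and are all open.

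The pathway around these genes was described by 5 lists of known components and targets, which were drawn up with earlier results of these arrays known. Over all genes 20.8% were called in KO and 20.3% in WT, and 10.3% and 9.49% were called higher. Of the 11 genes of the IKK complex and IKK-related kinases, 5 rose in KO and 4 in WT, and 0 fell. Their median log2 difference was 1.05 in KO and 0.61 in WT. Map3k14, which encodes NIK, the kinase that starts processing of the Nfkb2 product, had 3.62 and 4.5 in KO LPS cells, against 1.5 and 1.84 in KO unstimulated cells. In WT it had 3.24 and 4.24 with LPS, against 1.47 and 2.06 without. Map3k14 rose by 2.39 ± 0.46 in KO (adjusted p = 0.0136) and by 1.97 ± 0.46 in WT (adjusted p = 0.027). Tbk1, a kinase of the interferon branch, rose by 1.25 ± 0.24 in KO and by 1.13 ± 0.24 in WT (adjusted p = 0.0133 and 0.0195). The subunits of the core kinase complex itself, Chuk (0.36 in KO and 0.46 in WT), Ikbkb (1.54 and 1.24) and Ikbkg (0.7 and 0.37), were not called in either genotype. In the average over genotypes 7 of the 11 rose and 0 fell, where 37.5% of all tested genes were called and 18.4% called higher. Ikbkb rose by 1.39 ± 0.36 (adjusted p = 0.0216) and Ikbkg by 0.53 ± 0.17 (adjusted p = 0.0459), while Chuk had 0.41 ± 0.18 (adjusted p = 0.119).

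Ikbke, the kinase gene reported as a target of miR-155, rose by 2.27 ± 0.29 in KO (adjusted p = 0.00288) and by 1.93 ± 0.29 in WT (adjusted p = 0.00572). Its signal was 2.78 and 3.03 in KO LPS cells, against 2.48 and 2.78 in WT LPS cells, and 0.4 and 0.87 in KO unstimulated cells, against 0.55 and 0.85 in WT unstimulated cells. KO and WT arrays overlapped in both states. The KO minus WT difference was 0.27 ± 0.29 after LPS (95% interval −0.42 to 0.96) and −0.06 ± 0.29 in unstimulated cells (−0.75 to 0.63), without a call.

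Of 12 genes listed with the TRAF, cIAP and LUBAC ubiquitin ligases, 6 rose in KO and 6 in WT, and 0 fell. Over all genes 20.8% were called in KO and 20.3% in WT, and 10.3% and 9.49% were called higher. The ligases among the 12 build the chains that recruit IKK or act on IkB. Traf1, a signalling adaptor of the TNF receptor family, had 6.63 and 7.46 in KO LPS cells, against 2.93 and 2.79 in KO unstimulated cells, and 6.66 and 7.57 in WT LPS cells, against 3.28 and 3.4 in WT unstimulated cells. Traf1 rose by 4.18 ± 0.41 in KO (adjusted p = 0.00105) and by 3.77 ± 0.41 in WT (adjusted p = 0.00168). Birc3 and Birc2, the cIAP ligases that restrain NIK, rose by 2.27 ± 0.39 and by 2.01 ± 0.46 in KO. In WT Birc3 rose by 1.73 ± 0.39 and Birc2 by 1.8 ± 0.46 (adjusted p = 0.0236 and 0.0352). Traf3, the other restraint on NIK, was not called in either genotype, with differences of 0.5 in KO and 0.09 in WT. In the average over genotypes 7 of the 12 rose and 0 fell, where 37.5% of all tested genes were called and 18.4% called higher.

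Among 13 deubiquitinases and termination factors, 5 rose and 1 fell in KO, and 5 rose and 1 fell in WT. Over all genes 20.8% were called in KO and 20.3% in WT, and 10.3% and 9.49% were called higher. Tnfaip3 encodes A20, an ubiquitin-editing inhibitor of NF-kB signalling. It had 5.66 and 6.25 in KO LPS cells, against 2.47 and 1.94 in KO unstimulated cells, and 5.61 and 6.11 in WT LPS cells, against 2.14 and 2.48 in WT unstimulated cells. Tnfaip3 rose by 3.75 ± 0.35 in KO (adjusted p = 0.000968). Nlrc5, best known as the transactivator of MHC class I genes and placed in this list as a reported inhibitor of IKK, rose by 2.69 ± 0.33 in KO and by 2.92 ± 0.33 in WT. Zc3h12a, an RNase that degrades cytokine transcripts, rose by 2.61 ± 0.26 in KO and by 2.48 ± 0.26 in WT. The gene that fell was Pdlim2, a nuclear ligase for RelA, which is outside the naming rule and was picked after its value was seen. Pdlim2 fell by 2.38 ± 0.37 in KO (adjusted p = 0.00604) and fell by 1.85 ± 0.37 in WT (adjusted p = 0.0157). In the average over genotypes 6 of the 13 rose and 1 fell, where 37.5% of all tested genes were called and 18.4% called higher.

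Of 25 textbook NF-kB targets tested, 19 rose in KO and 19 in WT, and 0 fell. Il12b, Nos2 and Ptgs2 are counted in both genotypes, although they passed the filter on dim signal only through LPS cells. That filter favours a call of a rise with LPS, so their calls are given as description only. The same holds for Csf2, which passed only through WT LPS cells and was called only in the average over genotypes. Over all genes 20.8% were called in KO and 20.3% in WT, and 10.3% and 9.49% were called higher. The fitted median was 4.68 in KO and 4.22 in WT. In the average over genotypes 21 rose and 2 fell, where 37.5% of all tested genes were called and 18.4% called higher. Plau, which encodes urokinase, fell by 3.35 ± 0.84 (adjusted p = 0.0203) and Ccnd1, which encodes cyclin D1, by 2.29 ± 0.58 (adjusted p = 0.0206). Both were picked after their values were seen. Il6, a cytokine gene, had 8.5 and 8.37 in KO LPS cells, against −4.79 and −4.68 in KO unstimulated cells, and 8.54 and 8.22 in WT LPS cells, against −4.36 and −4.34 in WT unstimulated cells, 1 of which was not well above background. Il12b, which encodes a subunit shared by IL-12 and IL-23, was well above background on 0 unstimulated arrays. It had 5.39 and 8.27 in KO LPS cells and 5.68 and 7.82 in WT LPS cells. By the mean of the LPS arrays, Il12b was at least 5060-fold higher with LPS in KO and at least 2480-fold in WT. These bounds do not hold for each array. Ptgs2, the inducible cyclooxygenase, had 6.42 and 5.63 in KO LPS cells, against −4.63 and −6.09 in KO unstimulated cells. In WT, Ptgs2 had 6.16 and 4.86 with LPS, against −6.81 and −4.21 without, where 1 unstimulated array in each genotype was well above background. The 2 tested genes of the other IkB family list, Nfkbid and Nfkbil1, were not called in either genotype, with 0.59 and 0.24 in KO and 0.52 and 0.21 in WT. In the average over genotypes Nfkbid rose by 0.55 ± 0.17 (adjusted p = 0.0434), and Nfkbil1 had 0.22 (adjusted p = 0.675). None of the genes of the 5 lists was called in any comparison of KO with WT (0 of 63 tested), where at most 0.344% of all tested genes were.

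**Figure D5:**
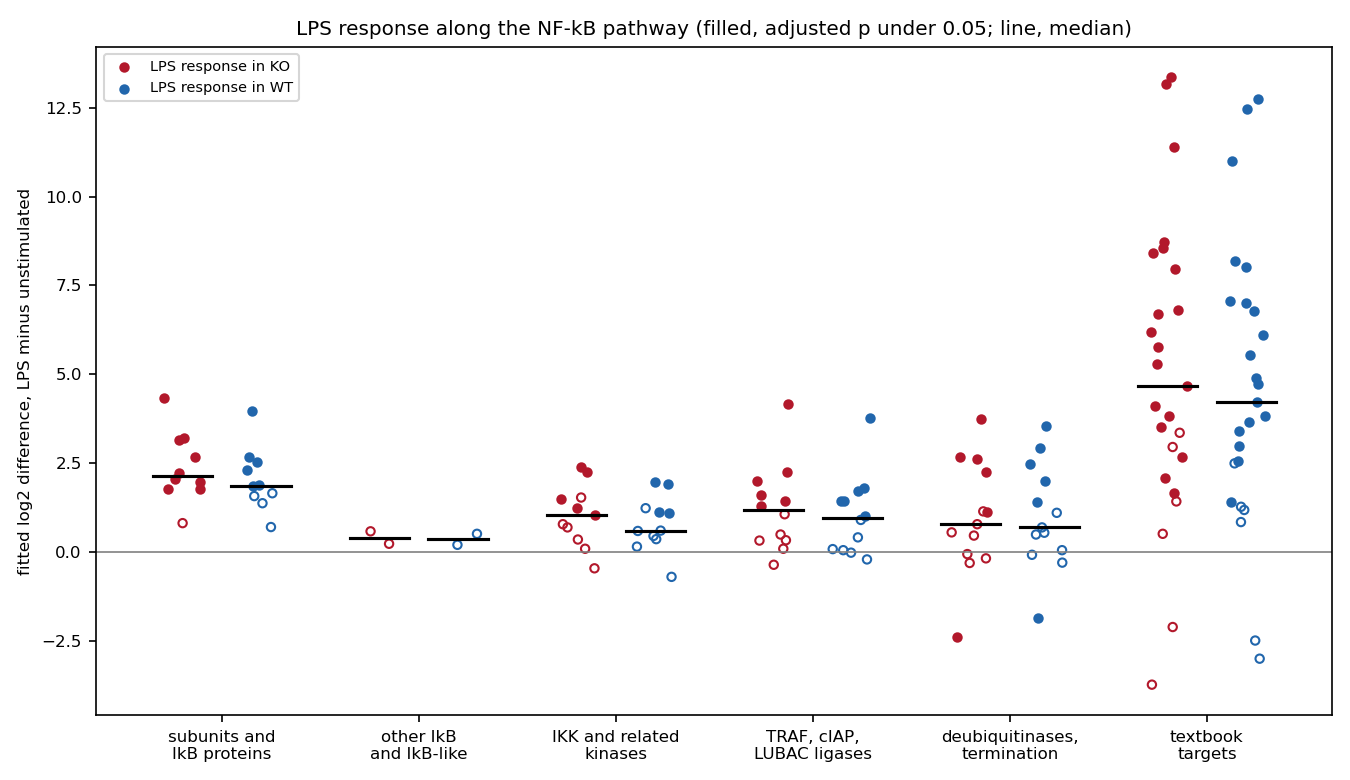
Fitted LPS log2 differences (vertical axis) of the 10 subunit and IkB genes and of the 5 pathway lists, with 1 point per gene in KO and WT; filled points have an adjusted p under 0.05 and lines are medians. The textbook targets reach the highest values, with medians of 4.68 in KO and 4.22 in WT, and the 10 genes have medians of 2.14 and 1.87.

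Markers of other cell types moved with LPS as well. Of 10 dendritic cell markers, 9 were well above background on both arrays of each LPS group and 10 of each unstimulated group. Their summed signal relative to the array's 75th percentile was 1230 to 1410 in KO LPS cells, against 951 to 1060 in KO unstimulated cells. In WT it was 1030 to 1380 with LPS, against 855 to 1100 without. Stromal markers, 6 in number, had a summed signal relative to the array's 75th percentile of 2.2 to 12.4 in KO LPS cells, against 0.139 to 0.154 in KO unstimulated cells, and of 2.26 to 6.01 in WT LPS cells, against 0.153 to 0.214 in WT unstimulated cells. The defining collagen genes Col1a1 and Col3a1 were not well above background in either LPS group. The 5 monocyte markers summed to 50.8 to 84.3 in KO LPS cells, against 128 to 145 in KO unstimulated cells, and to 65.6 to 66.1 in WT LPS cells, against 100 to 177 in WT unstimulated cells. The 6 basophil, mast cell and eosinophil markers summed to at most 0.123 in KO LPS and 0.094 in WT LPS cells, against 0.469 to 1.22 in KO unstimulated and 0.436 to 2.88 in WT unstimulated cells. Of the erythroid markers, 3 summed to 0.734 to 6.3 in KO LPS cells, against 0.139 to 0.234 in KO unstimulated cells, and to 0.486 to 7.73 in WT LPS cells, against 0.211 to 0.249 in WT unstimulated cells. Among these Klf1, a defining erythroid transcription factor, was not above background on any array. Neutrophil and B cell sums had overlapping ranges between states in both genotypes, and the B cell genes Cd79a, Ms4a1 and Pax5 were not above background in any group. Macrophage sums overlapped in KO but not in WT, with 219 to 245 with LPS, against 140 to 183 without. T and NK cell sums overlapped in WT but not in KO, with 0.26 to 0.307 with LPS, against 0.211 to 0.213 without. The part of these markers in the LPS differences was not tested.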

How the data were processed

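Per the file headers, the authors extracted each one-colour scan with Agilent Feature Extraction 10.5.1.1 on mm9, and the deposited signals are intensity values on a linear scale after background subtraction, with no scaling from array to array. Deposited flags of 0 or 1 per spot, of the unit other, record whether a spot was saturated, outlying or well above background. The deposited series table holds log2 values. Set against the scanner values, it was the log2 processed signal plus a constant for each array (r = 1, every column with a 75th percentile of 9.19), and its own scaling method is not given in the sources used here.

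Each of the 8 arrays had 45018 spots, 1639 of them controls, and 50.8% to 58.3% were well above background. No spot was saturated (0), and 120 to 174 outlying spots per array were left out. Spots of a probe were averaged on the log2 scale after subtracting the array's 75th percentile. A probe was kept when any group had it well above background on both of its arrays (a probe with several spots when this held for at least 50% of them), which left 23766 probes. The probe with the highest mean signal stood for its gene (15426 genes, of which 71 lack a value on some array). Group means were fitted over all 8 arrays with limma 3.58.1 in R 4.3.3 (package data.table, version 1.17.8), with 4 residual and 2.88 prior degrees of freedom, and p-values, two-sided, were adjusted over all genes by Benjamini-Hochberg with a threshold of 0.05. The fit was checked on simulated data. Groups and replicate numbers came from the labels, and slides were inferred from shared scan times in the file headers.

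The genes and lists were chosen with earlier results of these data known. All 10 genes are named, with the 3 largest called changes per pathway list in WT, any list gene called between KO and WT, and the 3 nearest profiles of Nfkbia and of Nfkb2. Core IKK genes, Traf3, Nfkbid, Nfkbil1, Pdlim2, Plau, Ccnd1, Nos2 and Csf2 are named outside that rule. Bcl2a1a and Ankrd42 were listed but not tested. The result of 1 marker gene is not reported here. Alternatives covered normalization, background correction, the series table, probe filters, slide, replicate number, arrays in the fit, moderation and leaving out each array. Promoters and the microRNA are from RefSeq, GRCm38.p6.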

Additional observations from a re-analysis of the deposited data

How the results depend on the processing

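The 10 genes kept the direction of their LPS difference in both genotypes under all 19 alternatives, and no called value turned round. Without single arrays the number called ran from 3 to 7 in WT, from 4 to 9 in KO and from 9 to 10 for the average of both, and it was 2 in KO within slide 2, where the lone unstimulated array was taken to vary like the others. The other alternatives gave 4 to 9 in WT and 2 to 10 in KO. No gene of the 10 was called between KO and WT under any alternative, although 85 of 716 values of those comparisons changed sign. With the replicate number as a block, the counts were 10 in KO, 9 in WT and 10 for the average, and 0 in the comparisons of KO with WT. That block added calls of Rela in KO (adjusted p = 0.0396) and of Relb (0.00905), Nfkbie (0.0299) and Bcl3 (0.0328) in WT. The labels do not say what a number marks. Deviations of same-numbered arrays correlated at 0.01 to 0.69, with 5 of 6 pairs over 0.1, short of the every pair asked for here to take the numbers as pairs. Along the axis of second-largest variation over all genes (9.57% of the variance), replicate 1 arrays lay at 17.6 to 44.7 and replicate 2 arrays at −42.4 to −21.9. The main fit has no term for the replicate number and leaves this shared difference in the spread. Over all genes, the calls were 3208 in KO (441 within slide 2 to 4182 with the replicate block) and 3131 in WT (1463 without WT LPS replicate 2 to 4177 with that block). Between KO and WT they were 53 in unstimulated cells (0 to 56), 4 after LPS (0 to 5), 33 averaged (0 to 36) and 11 for the difference between responses (0 to 28), so those shares rest on few calls. Fewer arrays are in the fit where an array or a slide is left out. The cause of the other changes was not tested. Signal near background limits Rel, which has no value under the filter that asks for all 8 arrays. Within-slide values could not be had for the averaged comparison, the average over genotypes or the difference between responses, which need both slides.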
